A study of Homo sapiens with 12 samples.

Results

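The RNA levels of 43 genes for cholesterol synthesis, fatty acid synthesis and lipid storage were followed in 769-P cells, an established human clear cell renal carcinoma line. The genes were taken by symbol from a list of lipid pathway genes, and all 43 were found among the 60617 Ensembl gene IDs of the 2 count tables. RNA sequencing had been done on 12 libraries in 4 groups of 3. The siDRAIC label names a small interfering RNA (siRNA) to DRAIC, a long non-coding RNA, and the siDRAIC-NC libraries are taken as its controls. The sihnRNPA2B1 label names one to hnRNPA2B1, a protein that binds RNA, with sihnRNPA2B1-NC as its controls. All 4 groups were the same line, grown in RPMI1640 with fetal bovine serum. The siRNA sequences, the meaning of NC and the time after transfection are not stated by the labels. Nothing says that replicates came from separate cultures, so every p-value reflects the spread of these libraries alone, which may be technical.

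Cells make cholesterol from acetyl-CoA through mevalonate, squalene and lanosterol, and make fatty acids from the same acetyl-CoA through malonyl-CoA. Both routes are switched on by the SREBP transcription factors, which SREBF1 and SREBF2 encode and which INSIG1 holds in the endoplasmic reticulum when sterol is plentiful. Surplus fatty acids and cholesterol are stored as triglycerides and sterol esters in lipid droplets, which with glycogen give clear cell renal carcinoma its clear look.

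SREBPs and their partner NF-Y bind at promoters, though such binding was not measured here for any of the 43 genes. The 300-base windows around the starts of these genes (250 bases before, 50 after, from RefSeq, GRCh38.p14) were read for 3 motifs on both strands. Windows were matched for 37 of the 43 genes. For each of these 1 window was kept, while the set of all windows was not cut to 1 per gene. The kept window need not be at the main start. That of IDI1 (chr10:1056655-1056954) lies outside the gene coordinates used here (1039152 to 1049170). The sterol regulatory element, searched as TCACNCCAC, was found in 2 of them, SREBF2 (chr22:41832855-41833154, plus strand) and PNPLA2 (chr11:818664-818963, plus strand), or 5.41% of these windows against 1.13% of all 35093 windows. The NF-Y motif CCAAT was in 21 of 37 windows (56.8%), against 34.6% of all windows. Among the mevalonate and sterol synthesis genes it was in 12 of 15 windows, and 9 of the 15 held at least 2 copies (60%), against 10.7% of all windows. MVK (chr12:109573544-109573843, plus strand) held 5 copies, MVD (chr16:88663042-88663341, minus strand) 3 and INSIG1 (chr7:155297628-155297927, plus strand) 1. The E-box CACGTG was in 5 of 37 windows (13.5%, against 7.26%), those of ABCA1, INSIG1, LSS, PLIN2 and SC5D. SREBF2 and PNPLA2 are printed for the sterol element and MVK, MVD and INSIG1, chosen after their values were seen, as genes described below. Each runs 5′ to 3′ on the gene's strand, and capitals mark TCACNCCAC and CCAAT on either strand (ATTGG is CCAAT read from the other strand). A match describes the letters in the window and not a bound site.
SREBF2: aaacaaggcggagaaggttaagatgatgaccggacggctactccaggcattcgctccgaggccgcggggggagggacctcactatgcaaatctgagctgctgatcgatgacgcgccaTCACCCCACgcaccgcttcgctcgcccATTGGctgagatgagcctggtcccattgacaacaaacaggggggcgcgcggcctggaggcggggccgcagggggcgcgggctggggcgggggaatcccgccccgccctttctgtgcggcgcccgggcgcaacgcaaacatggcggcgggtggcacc
PNPLA2: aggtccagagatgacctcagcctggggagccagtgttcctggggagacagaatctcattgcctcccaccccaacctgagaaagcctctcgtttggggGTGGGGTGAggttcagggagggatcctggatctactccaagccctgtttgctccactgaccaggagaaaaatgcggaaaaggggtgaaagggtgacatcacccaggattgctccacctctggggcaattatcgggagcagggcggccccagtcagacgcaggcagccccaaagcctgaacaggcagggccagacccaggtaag
MVK: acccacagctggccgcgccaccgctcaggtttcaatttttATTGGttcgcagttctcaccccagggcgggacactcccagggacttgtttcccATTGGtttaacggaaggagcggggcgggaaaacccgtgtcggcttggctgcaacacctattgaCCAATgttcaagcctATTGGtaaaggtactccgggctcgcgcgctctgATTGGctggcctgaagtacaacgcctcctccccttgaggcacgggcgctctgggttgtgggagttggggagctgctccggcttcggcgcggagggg
MVD: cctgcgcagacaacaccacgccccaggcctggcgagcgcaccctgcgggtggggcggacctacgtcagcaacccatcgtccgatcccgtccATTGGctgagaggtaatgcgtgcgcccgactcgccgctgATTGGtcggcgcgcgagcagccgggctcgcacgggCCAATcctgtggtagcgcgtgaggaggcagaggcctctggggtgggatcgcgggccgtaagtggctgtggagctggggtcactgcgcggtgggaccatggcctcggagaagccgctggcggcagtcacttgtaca
INSIG1: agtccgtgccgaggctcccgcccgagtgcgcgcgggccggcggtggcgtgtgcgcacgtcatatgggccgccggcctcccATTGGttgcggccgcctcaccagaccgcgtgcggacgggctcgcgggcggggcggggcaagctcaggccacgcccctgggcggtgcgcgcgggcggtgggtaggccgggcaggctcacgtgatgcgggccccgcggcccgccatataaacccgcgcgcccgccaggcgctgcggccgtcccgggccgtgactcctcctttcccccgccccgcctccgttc

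Library totals ran from 30798303 to 42760528 counts. HNRNPA2B1 RNA was at 291, 307 and 274 CPM (counts scaled to the library total) in the sihnRNPA2B1 libraries, against 428, 396 and 435 CPM in sihnRNPA2B1-NC, or -0.56 on the log2 scale (SE 0.05, edgeR adjusted p = 2.16e-09). DRAIC had 9 counts in all siDRAIC libraries together and 5 in siDRAIC-NC, a ratio of 1.76 (exact 95% interval 0.531 to 6.70, counting error only), so its knockdown was not detectable at this depth. The renal marker PAX8 was at 437 ± 15.5, 485 ± 40.7, 449 ± 13.3 and 500 ± 6.39 CPM in siDRAIC, siDRAIC-NC, sihnRNPA2B1 and sihnRNPA2B1-NC (mean ± SD, n = 3 each), while the clear cell carcinoma markers CA9 and NDUFA4L2 were under 1 CPM in every library. The defining adipocyte markers ADIPOQ, LEP, PLIN1, CIDEC, FABP4 and LPL were under 1 CPM in every library too, and their sum was at most 1.03 CPM. In bulk RNA, fewer cells of a type and less RNA per cell cannot be told apart.

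Per length of exon, ATP citrate lyase (ACLY), which makes cytosolic acetyl-CoA, was the most abundant of the 43 RNAs at a mean of 651 TPM (counts scaled by exon length and library total) over the 12 libraries. The stearoyl-CoA desaturase SCD followed at 403 TPM, the droplet coat protein gene PLIN3 at 261, the fatty acid synthase FASN at 237, AGPAT2, which makes phosphatidic acid, at 233 and INSIG1 at 136. At the other end were DGAT2, the enzyme that completes triglycerides, at 2.39 TPM and ACACB, the mitochondrial acetyl-CoA carboxylase, at 0.352 TPM. The cholesterol enzymes lay between these ends, from 89.5 TPM for the squalene epoxidase SQLE to 3.46 TPM for the sterol reductase TM7SF2.

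The 2 experiments differed in how tightly their libraries agreed. The median coefficient of variation over the 43 genes was 18.5% in siDRAIC and 23.6% in siDRAIC-NC, and 5.33% in sihnRNPA2B1 and 6.39% in sihnRNPA2B1-NC. Over all 12946 genes with a mean of at least 1 CPM it was 14.9%, 17.8%, 5.53% and 7.34% in the same 4 groups. Replicate 1 of siDRAIC-NC was the highest of its group for 27 of the 43 genes (62.8%, against 51.8% of those 12946 genes). Replicate 2 was the lowest for 29 of the 43, against 37.2% of those 12946 genes. SCD shows the size of this spread, with 1563, 534 and 746 CPM in the siDRAIC-NC libraries. Results of the DRAIC experiment below are therefore given without replicate 1 of siDRAIC-NC where that changes the call of a member, and for some other values. For the calls of members, the fits without each other library are given too.

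The first comparison set the libraries labelled siDRAIC against siDRAIC-NC. DGAT2 RNA was lower in every siDRAIC library than in every control. It was the one member that passed the test by group, which leaves out the replicate numbers. Most cholesterol synthesis genes had lower estimates too, without passing that test. With the replicate number as a block, 5 members passed, all lower, where 3.58% of all tested genes were called lower. In the test by group, all 43 genes passed the low-count filter. There, 0 were called higher and 1 was called lower at an edgeR adjusted p below 0.05, or 2.33%. Over all 15986 tested genes 0.713% were called, and 0.131% were called lower. At an unadjusted p below 0.05 there were 7 of the 43, against 1713 of all 15986 tested genes. DESeq2 called 1, again DGAT2, against 2.45% of all tested genes. Estimates lay below 0 for 32 of 43 genes, against 50.5% of all tested genes, and the median log2 fold change was -0.20, against -0.00 for all tested genes. Without siDRAIC-NC replicate 1 these medians were -0.12 and 0.05. The count of 32 was not repeated without that library, which was the highest control for 27 of the 43 genes. The libraries of the groups did not overlap for 6 genes on the lower side (MVK, NSDHL, EBP, DHCR7, ACLY and DGAT2) and 1 on the higher side (CPT1A), where 5.86% and 9.75% of all tested genes did the same.

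DGAT2 (ENSG00000062282; chromosome 11, 75759512 to 75801535, plus strand, GRCh38, exons overlapping AP001922.1 and AP003031.1 on the other strand) catalyses the last step of triglyceride synthesis. It measured 3.44, 3.44 and 2.97 CPM in the libraries labelled siDRAIC, against 5.96, 8.64 and 9.05 CPM in siDRAIC-NC. All siDRAIC libraries lay close together below the lowest control. This gave a log2 fold change of -1.30 with an SE of 0.27 (edgeR adjusted p = 0.0476). The call was lost with RLE size factors (adjusted p = 0.0519), with a filter of 1 CPM in 3 libraries (0.059) and without any 1 library (0.12 to 0.238), except siDRAIC-NC replicate 1 (0.00606). The fold change stayed between -1.49 and -1.20 in all 12 alternatives.

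Because same-numbered libraries of this experiment deviated together, a fit with the replicate number as a block was also made, and it called 5 of the 43 genes, all lower (11.6%), against 8.78% of all tested genes called and 3.58% called lower. These were DGAT2 (blocked log2 fold change -1.27, edgeR adjusted p = 4.43e-06) and 4 genes of cholesterol synthesis and transport, MVK, MVD, DHCR7 and STARD4. MVK, the mevalonate kinase (ENSG00000110921; chromosome 12, 109573255 to 109598117, overlapping MMAB), was at 25.3, 22.2 and 27.2 CPM in the libraries labelled siDRAIC, against 29.2, 38.2 and 50.4 CPM in siDRAIC-NC. The groups did not overlap, and the gap was widest for replicate 3. Its log2 fold change of -0.69 (SE 0.23) had an edgeR adjusted p of 0.237 without the block and 0.0033 with it. MVD, the decarboxylase that ends the mevalonate steps (ENSG00000167508; chromosome 16, 88651935 to 88663161), was at 63.2, 59.6 and 83.8 CPM in the libraries labelled siDRAIC, against 68.7, 118 and 149 CPM in siDRAIC-NC. Replicate 1 of siDRAIC-NC stood within the range of the siDRAIC libraries and the other controls stood above it. The log2 fold change was -0.74 (SE 0.27), with an edgeR adjusted p of 0.335 without the block and 0.000396 with it. Without siDRAIC-NC replicate 1, the unblocked fit also called MVK (-0.90, edgeR adjusted p = 0.0143) and MVD (-1.02, edgeR adjusted p = 0.00609) beside DGAT2, 3 members in all, against 6.26% of all genes tested there. Without any other 1 library the unblocked fit called 0 members, and 0.0542% to 0.577% of all genes tested.

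Further along the sterol route, DHCR7, the reductase of the last step to cholesterol (ENSG00000172893; chromosome 11, 71428193 to 71452868), was at 98.6, 89.5 and 95.7 CPM in the libraries labelled siDRAIC, against 138, 110.1 and 156 CPM in siDRAIC-NC. The groups did not overlap. The log2 fold change was -0.53 (SE 0.17), with an edgeR adjusted p of 0.218 without the block and 0.00899 with it. STARD4, a carrier of cholesterol between membranes (ENSG00000164211; chromosome 5, 111496033 to 111512590, overlapping STARD4-AS1), was at 16.0, 8.72 and 15.0 CPM in the libraries labelled siDRAIC, against 29.3, 15.0 and 18.6 CPM in siDRAIC-NC. Replicate 2 was the lowest in both groups and the ranges overlapped. Its log2 fold change was -0.68 (SE 0.27), with an edgeR adjusted p of 0.366 without the block and 0.00611 with it. Of the other enzymes of the route, the sterol isomerase EBP had an estimate of -0.36 (edgeR adjusted p = 0.563), the squalene synthase FDFT1 -0.34 (0.524) and the thiolase ACAT2 -0.27 (0.687). The highest estimate of the 18 mevalonate and sterol genes was 0.19, for the HMG-CoA synthase HMGCS1. Summed over these 18 genes, the level was 875 ± 132 CPM in the libraries labelled siDRAIC and 1058 ± 159 CPM in siDRAIC-NC.

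Among the sensors and exporters, INSIG1 (ENSG00000186480; chromosome 7, 155297776 to 155310235) was at 161, 117 and 168 CPM in the libraries labelled siDRAIC, against 255, 162 and 161 CPM in siDRAIC-NC. The groups overlapped, and 1 control library, replicate 1, stood well above all others. The log2 fold change of -0.39 (SE 0.19) did not pass the test (edgeR adjusted p = 0.504) and was -0.19 without that library. SREBF1, SREBF2 and ABCA1 had estimates of -0.02, 0.08 and 0.07, and the sign of SREBF2 turned without siDRAIC replicate 2 (-0.01) or siDRAIC-NC replicate 2 (-0.08). The estimates of SREBF1 and ABCA1 were not followed with libraries left out. In siDRAIC-NC, SREBF1 was at 350, 277 and 270 CPM and ABCA1 at 348, 217 and 288 CPM, so either sign may rest on 1 library.

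For the fatty acid genes, ACLY was at 1006, 978 and 851 CPM in the libraries labelled siDRAIC, against 1185, 1104 and 1298 CPM in siDRAIC-NC. All siDRAIC libraries were below all controls, and the log2 fold change of -0.36 (SE 0.15) did not pass the test (edgeR adjusted p = 0.408). FASN had an estimate of -0.32 (edgeR adjusted p = 0.491) and the elongase ELOVL6 -0.41 (0.699). Over the 12 alternatives the ELOVL6 estimate ran from -0.70 to -0.12. The acyl-CoA synthetases ACSL3 and ACSL1, which activate fatty acids, had estimates of -0.36 and 0.07, the second of which turned below 0 without siDRAIC-NC replicate 2 (-0.17) or siDRAIC replicate 1 or 3 (-0.01 each). That of ACSL3 ran from -0.58 to -0.05 over its alternatives. Of the glycerolipid genes, LPIN1, the phosphatidate phosphatase, had -0.39 (edgeR adjusted p = 0.593) and GPAM, the mitochondrial acyltransferase that opens the route, -0.35 (0.655). Their alternatives ran from -0.60 to -0.13 for LPIN1 and from -0.60 to -0.14 for GPAM.

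CPT1A, which carries fatty acids into mitochondria for oxidation, was the one member whose siDRAIC libraries all lay above the controls. It was at 20.1, 26.9 and 16.3 CPM in the libraries labelled siDRAIC, against 15.6, 13.3 and 15.3 CPM in siDRAIC-NC. The nearest libraries of the groups differed little, and the log2 fold change of 0.51 (SE 0.23) did not pass the test (edgeR adjusted p = 0.44). The triglyceride lipase PNPLA2 had an estimate of 0.20, which was -0.02 without siDRAIC replicate 2. Other measures also separated these libraries. Mitochondrially encoded mRNAs took 7.67 to 9.26% of the counts in the libraries labelled siDRAIC and 6.79 to 7.41% in siDRAIC-NC. The summed fibroblast markers ran from 10.5 to 18.2 CPM in siDRAIC and 2.55 to 6.59 CPM in siDRAIC-NC, with COL1A1 called higher and COL1A2, DCN, LUM and PDGFRA under 1 CPM in every library. The sixth of these markers, PDGFRB, was at 4.24 ± 2.21 CPM in siDRAIC and 1.28 ± 0.655 CPM in siDRAIC-NC (log2 fold change 1.74, edgeR adjusted p = 0.154 without the replicate block and 7.43e-07 with it). Of the 10 renal markers tested 1 was called, against 0.713% of all tested genes. This was CDH6, at 204 ± 19.2 CPM in siDRAIC and 109 ± 15.9 CPM in siDRAIC-NC. Of the hepatocyte list, SERPINA1 was at 185 ± 14.3 CPM in siDRAIC and 293 ± 78.3 CPM in siDRAIC-NC (edgeR adjusted p = 0.203 without the block and 0.000244 with it), with ALB, APOA1, TTR and TF under 1 CPM in every library of the study. The part of these measures in the lipid gene values was not tested.

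**Figure D1:**
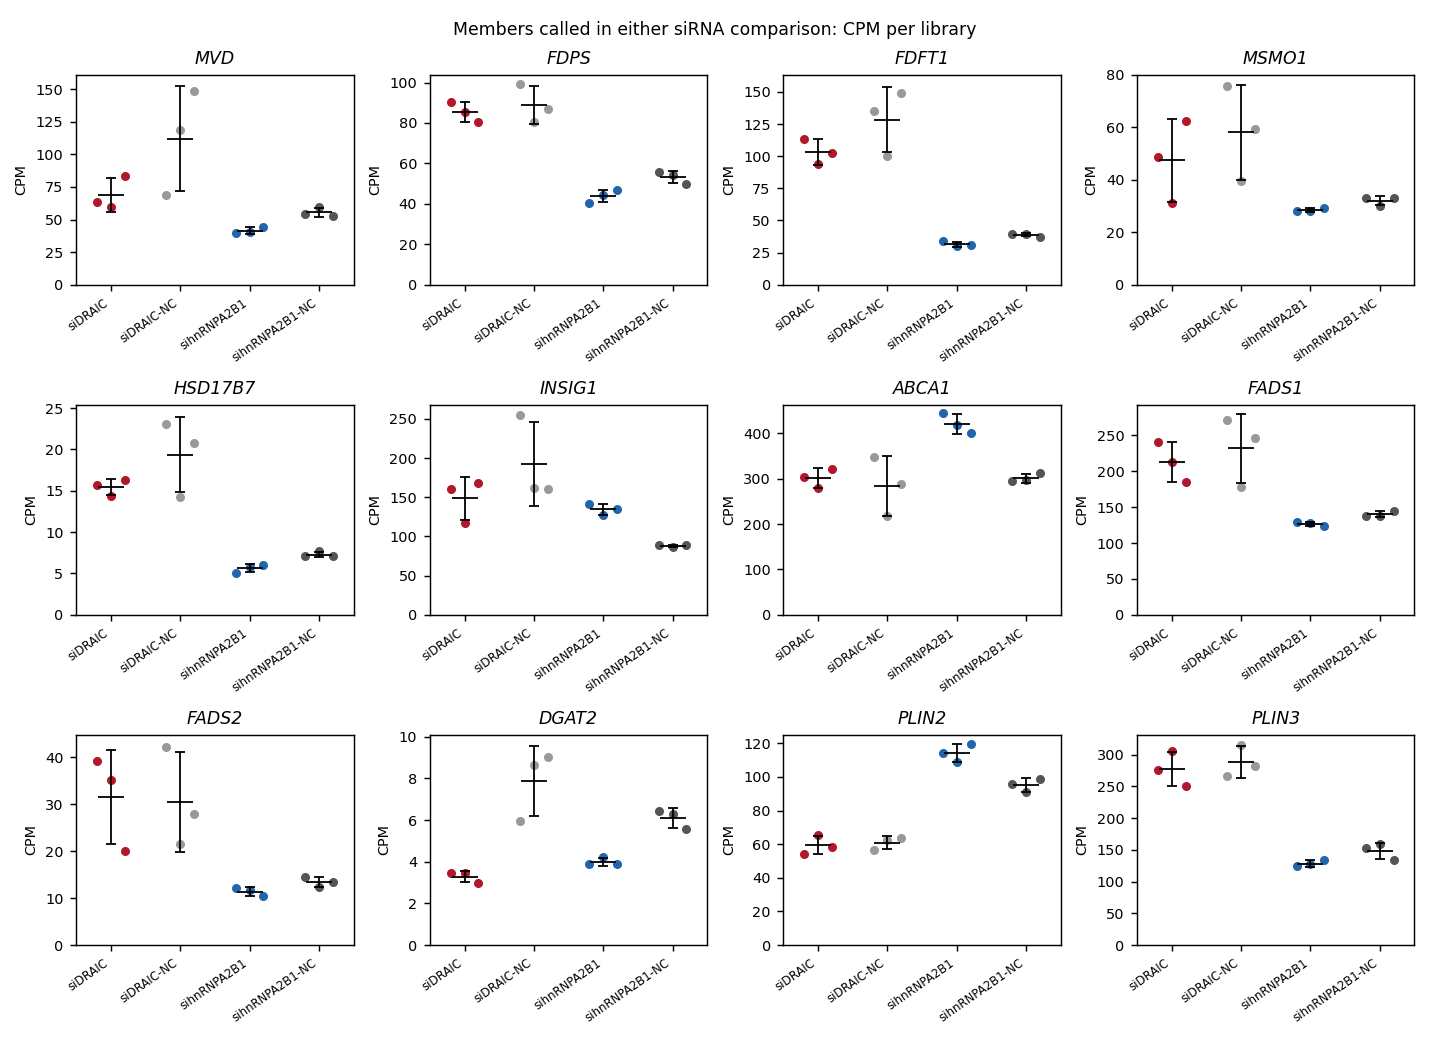
CPM of the 12 members called in a siRNA comparison, with 1 panel per gene, a point per library and bars for the mean ± SD of 3 libraries. DGAT2 lies lower in siDRAIC than in siDRAIC-NC and lower in sihnRNPA2B1 than in sihnRNPA2B1-NC, while INSIG1 is at 135 ± 6.72 CPM in sihnRNPA2B1 and 88.3 ± 1.44 CPM in sihnRNPA2B1-NC.

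The second comparison set sihnRNPA2B1 against sihnRNPA2B1-NC. INSIG1, the cholesterol exporter ABCA1 and the droplet coat gene PLIN2 rose. DGAT2 fell most among the called members, and 5 genes of cholesterol synthesis, both desaturases FADS1 and FADS2 and the droplet gene PLIN3 fell by smaller amounts. Of the 43 genes tested, 3 were called higher and 9 lower, 27.9% together, against 30.4% of all 15710 tested genes, so the count of changed members was close to the background. Those called lower made up 20.9% of the members and 15.4% of all tested genes, and those called higher 6.98% and 15.1%. Estimates lay below 0 for 28 of 43 genes, against 48.9% of all tested genes. The median log2 fold change was -0.12, against 0.01 for all tested genes. The groups did not overlap for 9 members on the higher side and 11 on the lower side, where 23.7% and 18.3% of all tested genes did the same. An edgeR fit of all 12 libraries together shares 1 estimate of the spread between both experiments. It called 0 of the 43, against 1.66% of all tested genes. In that fit 7 of the 43 had an unadjusted p below 0.05, a count not set beside all tested genes.

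INSIG1 was at 141, 128 and 135 CPM in sihnRNPA2B1, against 88.8, 86.7 and 89.4 CPM in sihnRNPA2B1-NC. The 3 controls lay within a few CPM of each other, well below all siRNA libraries. This gave a log2 fold change of 0.58 with an SE of 0.06 (edgeR adjusted p = 5.22e-09). ABCA1 (ENSG00000165029; chromosome 9, 104781002 to 104928237) hands cholesterol to apolipoproteins outside the cell. It was at 445, 417 and 400.3 CPM in sihnRNPA2B1, against 294, 297 and 313 CPM in sihnRNPA2B1-NC. Again the groups stood far apart, with a log2 fold change of 0.45 (SE 0.05, edgeR adjusted p = 8.32e-08). The RNAs of the SREBPs themselves did not pass the test, with estimates of -0.11 for SREBF1 (edgeR adjusted p = 0.178) and 0.01 for SREBF2 (0.932), although SREBF1 was called without sihnRNPA2B1-NC replicate 3. STARD4 had an estimate of -0.43 (edgeR adjusted p = 0.0617), and it was called without sihnRNPA2B1-NC replicate 2 (-0.54, edgeR adjusted p = 0.0283).

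Of the 7 mevalonate pathway genes, 2 fell, where 15.4% of all tested genes did, and all 7 estimates were below 0. MVD was at 39.5, 40.3 and 44.5 CPM in sihnRNPA2B1, against 54.5, 59.4 and 52.8 CPM in sihnRNPA2B1-NC. Every siRNA library was lower than every control (log2 fold change -0.46, SE 0.07, edgeR adjusted p = 1.25e-05). FDPS, the farnesyl diphosphate synthase, whose exons overlap RUSC1-AS1, was at 40.6, 44.4 and 46.8 CPM in sihnRNPA2B1, against 55.6, 54.2 and 49.8 CPM in sihnRNPA2B1-NC. These groups did not overlap either (log2 fold change -0.31, SE 0.07, edgeR adjusted p = 0.00134). PMVK, the phosphomevalonate kinase, had an estimate of -0.18 (edgeR adjusted p = 0.0982).

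Of the 11 squalene and sterol enzymes, 3 fell, against the same 15.4% of all tested genes. FDFT1, which joins farnesyl units into squalene, was at 33.7, 29.9 and 30.9 CPM in sihnRNPA2B1, against 39.4, 39.4 and 37.4 CPM in sihnRNPA2B1-NC. There was no overlap between groups (-0.33, SE 0.07, edgeR adjusted p = 0.00084). HSD17B7, a sterol ketone reductase, was at 5.11, 5.84 and 6.0 CPM in sihnRNPA2B1, against 7.11, 7.67 and 7.06 CPM in sihnRNPA2B1-NC. Its groups were also apart (-0.40, SE 0.13, edgeR adjusted p = 0.0206), and the call was lost without sihnRNPA2B1 replicate 1 (edgeR adjusted p = 0.109) or sihnRNPA2B1-NC replicate 2 (0.0798). MSMO1, the methylsterol monooxygenase, was at 28.0, 28.1 and 29.2 CPM in sihnRNPA2B1, against 33.0, 30.0 and 32.9 CPM in sihnRNPA2B1-NC. It fell by 0.20 on the log2 scale (SE 0.07, edgeR adjusted p = 0.0403), a call that was lost without any 1 library except sihnRNPA2B1-NC replicate 2 (edgeR adjusted p of 0.0556 to 0.149) and without the low-count filter (0.0803). The other 8 enzymes had estimates of -0.44 for TM7SF2 (edgeR adjusted p = 0.108), whose exons overlap VPS51, to 0.21 for SC5D (0.158). The 18 mevalonate and sterol genes summed to 378 ± 5.98 CPM in sihnRNPA2B1 and 415 ± 6.81 CPM in sihnRNPA2B1-NC.

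In the fatty acid route 2 of 9 genes fell, FADS1 and FADS2, where 15.4% of all tested genes did. FADS1 and FADS2 put double bonds into long polyunsaturated fatty acids, and their exons overlap on opposite strands, so that reads of one may be counted for the other. FADS1 was at 129, 128 and 124 CPM in sihnRNPA2B1, against 138, 138 and 145 CPM in sihnRNPA2B1-NC (log2 fold change -0.18, SE 0.05, edgeR adjusted p = 0.0108). FADS2 was at 12.1, 11.7 and 10.4 CPM in sihnRNPA2B1, against 14.5, 12.4 and 13.5 CPM in sihnRNPA2B1-NC (-0.27, SE 0.10, edgeR adjusted p = 0.0445). Neither pair of groups overlapped, and the gap was small for both. The FADS2 call was lost without any 1 library except sihnRNPA2B1-NC replicate 2 (edgeR adjusted p of 0.0508 to 0.184) and that of FADS1 without sihnRNPA2B1 replicate 2 (0.055) or, just past the threshold, replicate 3. ACLY, FASN and SCD, the abundant genes of this route, had estimates of 0.09 (edgeR adjusted p = 0.159), 0.01 (0.888) and 0.10 (0.139). ACACB was the rarest member, with 0.411, 0.0762 and 0.156 CPM in sihnRNPA2B1, against 0.455, 0.661 and 0.278 CPM in sihnRNPA2B1-NC. The groups overlapped, and its estimate of -1.19 (SE 0.56) did not pass the test (edgeR adjusted p = 0.114) but did without sihnRNPA2B1 replicate 1 (-2.01, edgeR adjusted p = 0.0446).

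The storage genes split. DGAT2 was at 3.90, 4.22 and 3.87 CPM in sihnRNPA2B1, against 6.43, 6.30 and 5.56 CPM in sihnRNPA2B1-NC. The siRNA libraries were all below the controls, with a log2 fold change of -0.64 (SE 0.15, edgeR adjusted p = 0.00113). DGAT1, the other enzyme of that step, whose exons overlap HSF1, had an estimate of 0.22 (edgeR adjusted p = 0.0733). PLIN2 (ENSG00000147872; chromosome 9, 19108375 to 19149290) coats lipid droplets and shields their triglycerides. It was at 114, 109 and 119.6 CPM in sihnRNPA2B1, against 95.8, 90.8 and 98.9 CPM in sihnRNPA2B1-NC, again with no overlap (0.23, SE 0.06, edgeR adjusted p = 0.00278). Its relative PLIN3 was at 124, 127 and 134 CPM in sihnRNPA2B1, against 153, 159 and 134 CPM in sihnRNPA2B1-NC. Here the highest siRNA library met the lowest control (-0.24, SE 0.06, edgeR adjusted p = 0.00376). CPT1A and PNPLA2 had estimates of 0.16 (edgeR adjusted p = 0.309) and 0.03 (0.802), the second of which was -0.05 without sihnRNPA2B1-NC replicate 3, and ACSL1 and ACSL3 -0.10 and 0.07.

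In these libraries too other measures differed between the groups. Mitochondrially encoded mRNAs took 6.23 to 6.48% of the counts in sihnRNPA2B1 and 5.10 to 5.21% in sihnRNPA2B1-NC. Of the renal markers, the cadherin CDH6 was at 30.9 ± 3.55 CPM in sihnRNPA2B1 and 7.99 ± 0.749 CPM in sihnRNPA2B1-NC (log2 fold change 1.92, edgeR adjusted p = 1.22e-14), and PAX8, CDH2 and KRT18 were called lower. The summed renal markers were 2282 to 2374 CPM in sihnRNPA2B1 and 2332 to 2389 CPM in sihnRNPA2B1-NC. SERPINA1 was at 30.5 ± 1.29 CPM in sihnRNPA2B1 and 53.9 ± 2.15 CPM in sihnRNPA2B1-NC (-0.85, edgeR adjusted p = 1.4e-10). The part of these measures in the lipid gene values was not tested. The summed adipocyte markers were 0.156 to 0.352 CPM in sihnRNPA2B1 and 0.0254 to 0.227 CPM in sihnRNPA2B1-NC, near 0 beside the droplet genes.

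**Figure D2:**
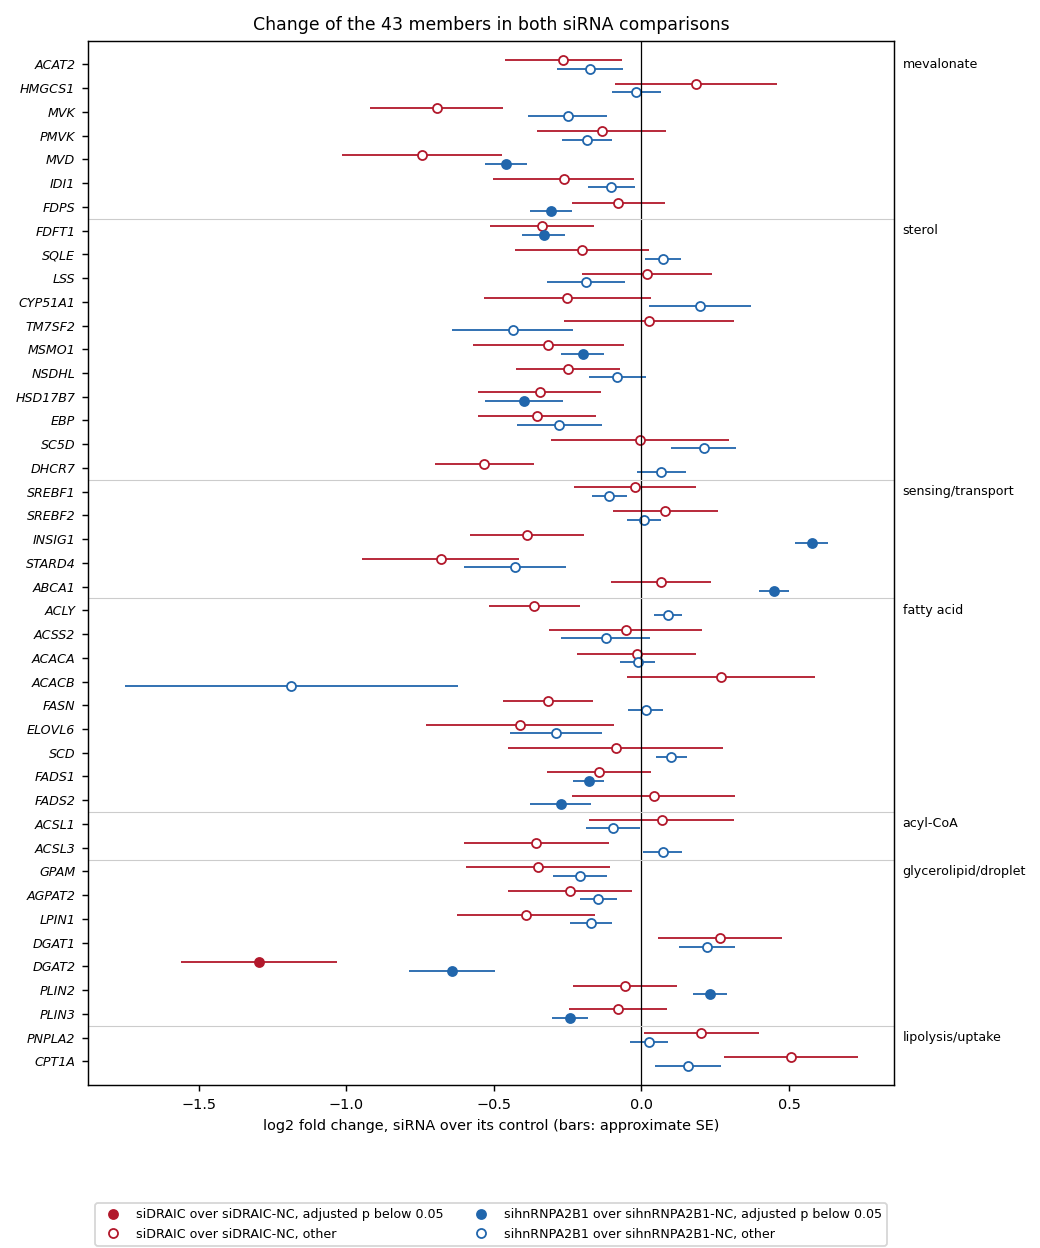
Log2 fold change of each of the 43 genes, siRNA over its own control, with the siDRAIC comparison above the sihnRNPA2B1 comparison for each gene, bars of 1 approximate SE and filled points for an edgeR adjusted p below 0.05. The siDRAIC bars are wider; 1 point is filled there, and 12 are filled for sihnRNPA2B1.

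The test of the difference asked whether the change in the libraries labelled siDRAIC differed from the change after hnRNPA2B1 siRNA. INSIG1 came closest to passing it, with opposite estimates in the 2 experiments. None of the 43 genes was called by edgeR, against 0.211% of all 17091 tested genes. At an unadjusted p below 0.05 there were 7 of the 43, against 1561 of all 17091 tested genes. DESeq2 called 1, INSIG1, against 1.14% of all tested genes. Estimates of the difference lay below 0 for 26 of the 43, against 55.5% of all tested genes. The difference for INSIG1 was -0.99 (SE 0.21, edgeR adjusted p = 0.0809), and it passed with the replicate block (-0.99, 0.00907, where 1.51% of all tested genes passed), with DESeq2 (-0.98, adjusted p = 0.00389), without the low-count filter (-0.98, 0.000171) and without siDRAIC-NC replicate 1 (-0.80, edgeR adjusted p = 0.0253). In that last fit ACLY passed as well, and 1.98% of all genes tested did. The other genes with an unadjusted p below 0.05 were DHCR7 (-0.63, edgeR adjusted p = 0.197), ACLY (-0.49, 0.228), DGAT2 (-0.69, 0.461), ABCA1 (-0.41, 0.466), FASN (-0.36, 0.474) and ACACB (1.42, 0.518).

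DGAT2 was called lower in both experiments, and with the replicate block in the DRAIC experiment MVD was too. The DGAT2 estimate was larger in size in the libraries labelled siDRAIC, but was not shown to differ from that after hnRNPA2B1 siRNA. Side by side, 22 of the 43 genes had estimates below 0 in both experiments and 5 above 0 in both. Another 10 were below 0 only in the siDRAIC comparison and 6 only in the sihnRNPA2B1 comparison. These counts were not made over all tested genes, so whether the members share a sign more often than other genes was not tested. The experiments share no libraries.

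**Figure D3:**
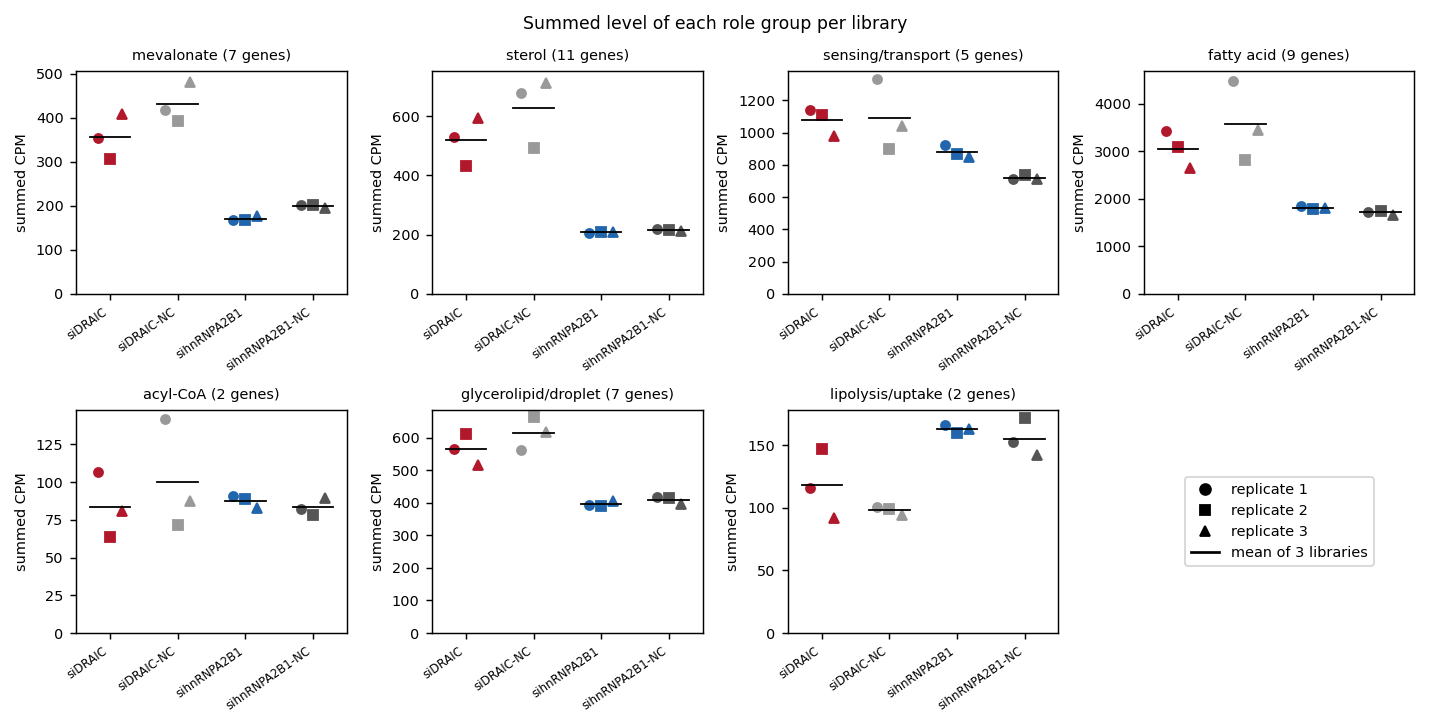
Summed CPM of each group of genes by role, with 1 panel per group, a symbol per replicate number and a line at the mean of 3 libraries. The mevalonate and sterol panels lie lowest in sihnRNPA2B1 and sihnRNPA2B1-NC, and the siDRAIC and siDRAIC-NC libraries are higher and more scattered.

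The largest differences in these genes lay between the 2 control groups. The 18 cholesterol synthesis RNAs summed to 1058 ± 159 CPM in siDRAIC-NC and 415 ± 6.81 CPM in sihnRNPA2B1-NC, a ratio of 2.55. The fold differences of the single genes ran from 1.00 for TM7SF2 to 6.72 for DHCR7. Of the 43 genes, 32 were called higher in siDRAIC-NC (74.4%) and 2 lower (4.65%), against 26.6% and 25% of all 17091 tested genes, or 79.1% of the members and 51.6% of all tested genes together. The groups did not overlap for 32 members on the higher side and 3 on the lower side, where 29.2% and 28.6% of all tested genes did the same. The median log2 difference was 0.91, against 0.02 for all tested genes. The experiment, any difference between the control siRNAs and the libraries' handling cannot be told apart here. HNRNPA2B1 also differed between these controls, by 0.90 on the log2 scale (edgeR adjusted p = 1.93e-05).

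All 7 mevalonate genes and 9 of the 11 sterol enzymes were called higher in siDRAIC-NC. DHCR7 differed most, with 138, 110.1 and 156 CPM in siDRAIC-NC, against 19.8, 20.8 and 19.8 CPM in sihnRNPA2B1-NC. The ranges were far apart, and the log2 difference was 2.75 (SE 0.13, edgeR adjusted p = 1.1e-09). MVK (2.22, edgeR adjusted p = 6.34e-07), the lanosterol synthase LSS (2.00, 9.87e-07) and ACAT2 (1.99, 1.42e-07) followed. The sterol enzymes not called were TM7SF2 (0.00) and SC5D (0.33). Of the sensors and carriers, STARD4 was higher by 2.31, INSIG1 by 1.12, SREBF2 by 1.10 and SREBF1 by 0.67 in siDRAIC-NC, while ABCA1 was at 284 ± 65.6 CPM in siDRAIC-NC and 301 ± 9.94 CPM in sihnRNPA2B1-NC (-0.08, edgeR adjusted p = 0.583), an estimate that was 0.05 without siDRAIC-NC replicate 2.

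In the fatty acid route 8 of 9 genes were called higher in siDRAIC-NC, all but ELOVL6 (0.58, edgeR adjusted p = 0.0798). ELOVL6 was called without the low-count filter, without siDRAIC-NC replicate 2 and with the replicate block (0.51, 0.0454). Nothing in the labels pairs same-numbered libraries of the 2 experiments, so the block has no basis in this comparison. FASN was at 1209, 864 and 978 CPM in siDRAIC-NC, against 343, 379 and 319.8 CPM in sihnRNPA2B1-NC (1.55, SE 0.11, edgeR adjusted p = 3.04e-08). The lowest siDRAIC-NC library was still well above the highest of the other control. ACLY differed by 0.57 and SCD by 1.61, and the rare ACACB by 2.35. The storage and lipolysis genes did not all follow. PLIN2 was at 56.5, 62.3 and 63.7 CPM in siDRAIC-NC, against 95.8, 90.8 and 98.9 CPM in sihnRNPA2B1-NC (-0.63, SE 0.12, edgeR adjusted p = 0.000394). PNPLA2 was at 85.2, 85.9 and 78.6 CPM in siDRAIC-NC, against 142, 162 and 133 CPM in sihnRNPA2B1-NC (-0.79, SE 0.15, edgeR adjusted p = 0.000369). These 2 genes, a coat of stored triglyceride and the lipase that cleaves it, stood lower in siDRAIC-NC with no overlap. PLIN3, AGPAT2, DGAT1 and CPT1A were called higher there, and ACSL1, ACSL3, GPAM, LPIN1 and DGAT2 were not called, although DGAT2 was without siDRAIC-NC replicate 1 (0.60, edgeR adjusted p = 0.00525), LPIN1 without siDRAIC-NC replicate 2 and ACSL3 without the low-count filter. The CPT1A call was lost without sihnRNPA2B1-NC replicate 3. Of the 10 renal markers tested 6 were called higher in siDRAIC-NC and 1 lower, where 26.6% and 25% of all tested genes were.

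**Figure D4:**
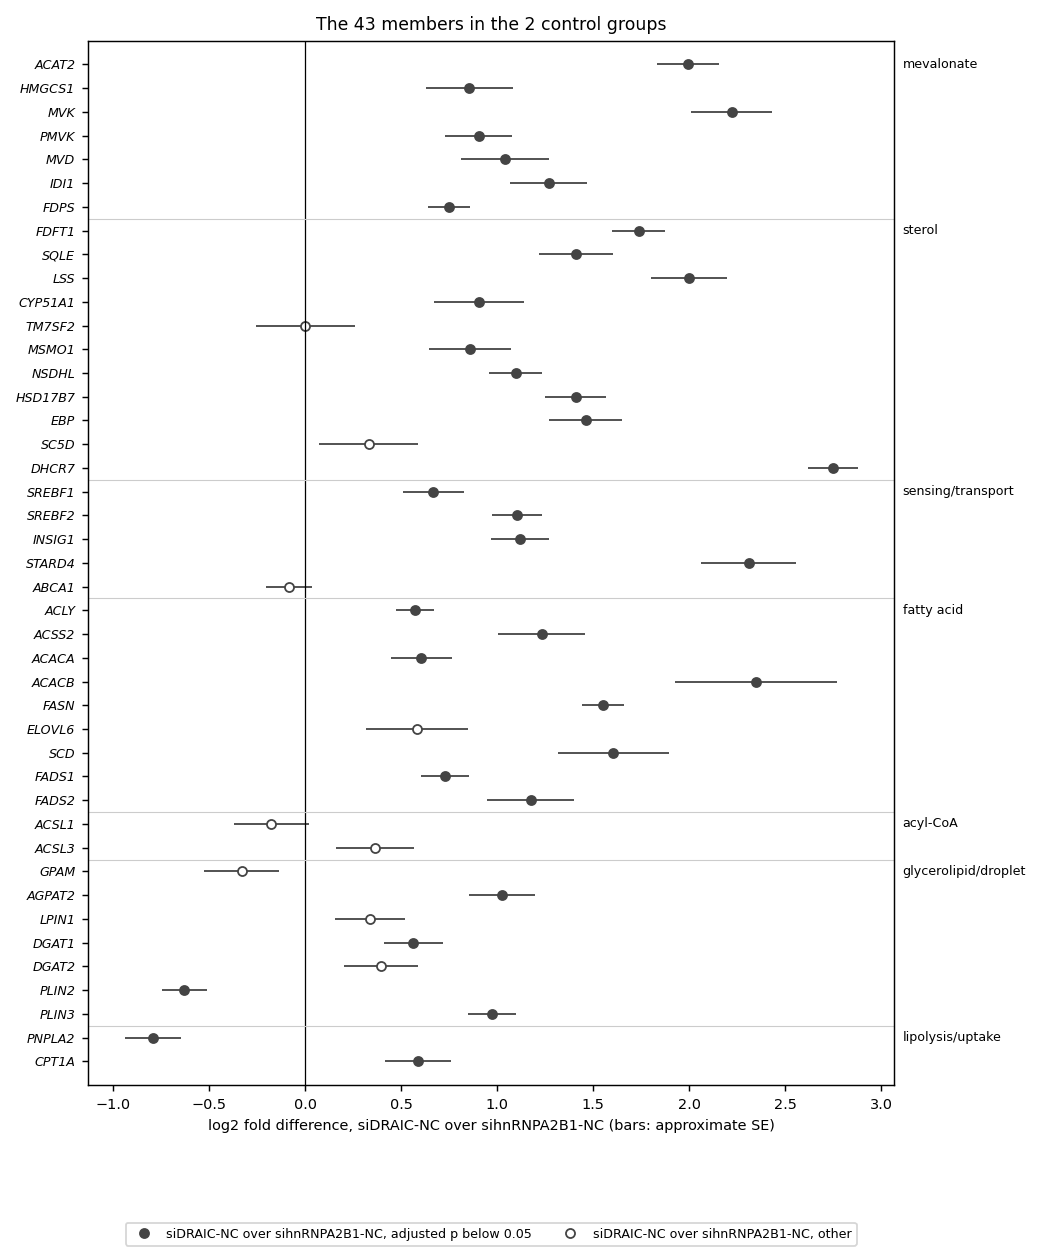
Log2 difference of each of the 43 genes between the control groups, siDRAIC-NC over sihnRNPA2B1-NC, with bars of 1 approximate SE and filled points for an edgeR adjusted p below 0.05. Of the filled points 32 lie to the right of 0 and 2, PLIN2 and PNPLA2, to the left.

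Another 73 genes of the same pathways, in 4 lists, gave the setting of these values. In the libraries labelled siDRAIC 1 of 62 tested was called, against 0.713% of all tested genes. This was GPAT3, an acyltransferase of the endoplasmic reticulum that starts glycerolipid synthesis. It was at 39.8 ± 7.69 CPM in siDRAIC and 80.9 ± 19.4 CPM in siDRAIC-NC (log2 fold change -1.05, edgeR adjusted p = 0.0462). DESeq2 made 3 calls, GPAT3, SCD5 and ACSL5 (2.45% of all tested genes), and the replicate block 5, these with MID1IP1 and ACADVL (8.78%). Without siDRAIC-NC replicate 1 there were 4 calls, GPAT3, SCD5, ME1 and ACSL5 (6.26%). GPAT3 also fell after hnRNPA2B1 siRNA, to 36.2 ± 3.61 CPM in sihnRNPA2B1, against 51.1 ± 0.593 CPM in sihnRNPA2B1-NC (-0.53, edgeR adjusted p = 2.27e-06). After this siRNA 15.1% of all tested genes were called higher and 15.4% lower, the shares beside which the counts of the 4 lists stand. With GPAT3, 5 of 13 tested genes of the glycerolipid and droplet list fell, among them the acyltransferase AGPAT4 (-0.45, edgeR adjusted p = 8.57e-07) and the phosphatidate phosphatase LPIN2 (-0.40, 9.63e-05), and 1 rose, LDAH (0.20, 0.0306).

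Of 15 other sterol regulators and carriers, 5 fell and 1 rose after hnRNPA2B1 siRNA. NPC2, which moves cholesterol out of lysosomes, was at 28.1 ± 2.25 CPM in sihnRNPA2B1 and 39.4 ± 0.993 CPM in sihnRNPA2B1-NC (-0.52, edgeR adjusted p = 4.64e-06). STARD3, a sterol carrier of late endosomes (-0.24, edgeR adjusted p = 0.00512), and SCAP, which escorts SREBPs to the Golgi (-0.20, 0.0209), fell too, and MBTPS1, the protease that first cuts SREBPs, rose (0.18, 0.0159). Of 15 other fatty acid synthesis genes 4 rose and 3 fell. The malic enzyme ME1 (0.43, edgeR adjusted p = 6.39e-06), a source of NADPH, the citrate carrier SLC25A1 (0.40, 3.27e-05) and HACD3 (0.21, 0.0027) were the risers of smallest p. The fourth, SCD5, had the largest estimate of the list, at 4.39 ± 0.345 CPM in sihnRNPA2B1 and 2.69 ± 0.401 CPM in sihnRNPA2B1-NC (0.68, edgeR adjusted p = 0.00338). The genes MID1IP1 (-0.18, 0.0106), ELOVL7 (-0.22, 0.02) and ELOVL1 (-0.15, 0.0364) fell. Of 15 genes of lipolysis and oxidation 2 rose, ACSL4 (0.27, edgeR adjusted p = 0.000548) and CPT1B (1.53, 0.013), the second at 0.701 ± 0.0915 CPM in sihnRNPA2B1 and 0.232 ± 0.118 CPM in sihnRNPA2B1-NC. The PNPLA2 activator ABHD5 (-0.34, edgeR adjusted p = 0.00163), HADHB of beta-oxidation (-0.23, 0.00232) and the monoglyceride lipase MGLL (-0.18, 0.00655) fell. None of the 62 tested passed edgeR's test of the difference between the experiments. Of these, 8 had an unadjusted p below 0.05, against 1561 of all 17091 tested genes. DESeq2 and the replicate block called 2 each, AGPAT4 and NPC2, against 1.14% and 1.51% of all tested genes. Between the control groups 7 of the tested genes of each list were called higher in siDRAIC-NC, and 2 or 3 lower, of 14 to 18 tested, where 26.6% and 25% of all tested genes were called.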

How the data were processed

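RNA was sequenced from 12 libraries of 769-P cells. The authors deposited whole-number read counts for each Ensembl gene, in 2 tables, 1 for each siRNA. RNAiso Plus was used for extraction and a TruSeq kit for the libraries, per the labels' protocols. The submitters' processing notes name hg38 as build and, as tools, DESeq2, StringTie, STAR 2.7.10a and fastp 0.23.2. The counting program, its annotation and its use of strand are not stated there, so reads of overlapping genes cannot be told apart. Of 60617 IDs, 60261 were paired with a symbol and 58542 are in GENCODE 29, the source of gene coordinates. There were 0 rows naming no gene and 0 unused sample columns.

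The members and gene lists were chosen with earlier results of these data known. Counts were fitted per experiment with edgeR 4.0.16 in R 4.3.3 (filterByExpr with a minimum count of 10, TMM factors, robust quasi-likelihood test, two-sided). The difference of the changes and the control comparison used all 12 libraries. P-values were adjusted by Benjamini-Hochberg over all tested genes, and a gene is called at an adjusted p below 0.05. SE is approximate, computed as the size of the log2 fold change divided by the root of F. TPM were computed from counts and GENCODE exon length. Fits were tested on simulated data. Replicates differed by more than sampling noise (chi-square per degree of freedom 4.94 to 139.8), so none was treated as a copy.

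The genes named are the called members and the 3 of smallest p in each role group per siRNA comparison; other pathway genes are up to 3 called per list and direction. Others were chosen after their values were seen. One renal marker is not reported here. The groups share replicate numbers. Deviations from the group means correlated at 0.489, 0.229 and 0.277 between same-numbered libraries of the DRAIC experiment, all above 0.1, so those numbers are taken to pair the samples. Between libraries of different numbers the correlations ran from -0.409 to 0.103. The fit reported first leaves this pairing out. Alternatives were RLE factors, DESeq2 1.42.0, leaving out the filter, requiring 1 CPM in 3 libraries, the replicate block, all 12 libraries in 1 fit, and each library left out.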

Additional observations from a re-analysis of the deposited data

How the results depend on the processing

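The number of the 43 genes called in the libraries labelled siDRAIC, 1 in the analysis as reported, was 0 with RLE size factors, 2 without the low-count filter, 0 with a filter of 1 CPM in 3 libraries, 5 with the replicate block and 3 in the fit of all 12 libraries. With 1 library left out it ran from 0 to 3. All genes called there numbered 114 as reported, 392 with DESeq2, 520 without the filter, 61 with the stricter filter, 1404 with the block, 665 with all 12 libraries and 9 to 1035 with 1 library left out. After hnRNPA2B1 siRNA the 12 called members became 0 with all 12 libraries, where 283 genes in all were called in place of 4781. With 1 library left out they were 9 to 16, where 20.5% to 33.9% of all genes tested were called. The causes of these shifts were not tested. For the difference of changes, 0 called members became 1 with DESeq2, 1 without the filter, 1 with the block and 0 to 2 with 1 library left out. The shares of all genes called there were 1.14%, 0.779%, 1.51% and 0.0507% to 1.98%. The 34 calls between controls ran from 33 to 36 in all alternatives, where 26.5% to 59.8% of all genes tested were called.

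The median log2 fold change of the 43 genes stayed below 0 in all alternatives run, from -0.30 to -0.12 for siDRAIC and from -0.17 to -0.11 for sihnRNPA2B1. With the replicate block the siDRAIC estimates of TM7SF2 (0.03, blocked -0.003) and ACACA (-0.02, blocked 0.01) changed sign. Among the single genes named for each comparison, which alone were followed through the other alternatives, the estimates that changed sign did so with 1 library left out, and none of them was called. Their lowest and highest values with 1 library left out were -0.075 and 0.20 for SREBF2, -0.17 and 0.20 for ACSL1 and -0.021 and 0.36 for PNPLA2 in the siDRAIC comparison, and -0.046 and 0.12 for PNPLA2 in the sihnRNPA2B1 comparison. For the difference they were -0.16 and 0.11 for FDFT1, -0.38 and 0.11 for MSMO1, -0.13 and 0.11 for HSD17B7 and -0.13 and 0.096 for FADS1, and between controls -0.19 and 0.051 for ABCA1. In the hnRNPA2B1 experiment same-numbered libraries correlated at -0.012, -0.024 and -0.045, so the numbers pair nothing there. The block called 10 members, against 28.1% of all tested genes, and did not call MSMO1 and FADS2. Depth limits DRAIC and ACACB, at under 1 CPM in several libraries, and 3 libraries per group limit every test.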
